A study of Mus musculus with 16 samples.

Results

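Epithelial-mesenchymal transition is the programme by which epithelial cells loosen their junctions and take on the shape and movement of mesenchymal cells. It is known for an exchange of cadherins, E-cadherin (Cdh1) giving way to N-cadherin (Cdh2), with the intermediate filament vimentin (Vim) as a common mesenchymal marker. Zinc-finger repressors of the Zeb and Snail families and the transcription factors Twist1, Twist2 and Prrx1 drive it, in large part by shutting down Cdh1 and other epithelial genes. In pancreatic tumours Vim, Zeb2 and Prrx1 are also made by cells that were never epithelial, among them macrophages, fibroblasts and vessel cells, so a level in whole tissue is a sum over cell types.

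These 10 genes (Cdh1, Cdh2, Vim, Zeb1, Zeb2, Snai1, Snai2, Twist1, Twist2 and Prrx1) were followed in orthotopic pancreatic tumours of female C57BL/6 mice. Their symbols stand on 22 of the 56605 probes of the array, which carry 36637 gene names. RNA of 16 whole tumours was hybridised in 1 colour: 5 tumours were taken 48 h after ADH-503 was started, 5 at 10 days, and 6 came from animals given vehicle. ADH-503, called LA1 in the sample titles, is a small-molecule agonist of CD11b, an integrin of myeloid cells. The labels give the vehicle tumours no time and name neither the tumour cells implanted nor whether each sample is its own animal, so p-values measure the spread between these samples, which may be technical in part. The stated purpose was to find genes that change at the 2 times after treatment began. In whole tumours, fewer cells of a type and less RNA per cell cannot be told apart.

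Each value below is a log2 level relative to the 75th percentile of its own array, read from the brightest probe of the gene. That percentile lay at a signal of 4953 to 6736, and the scanner software called 74.9% to 81.2% of an array's probes well above background. The arrays lay on 2 slides: slide 1 held 4 tumours of 48 h, 3 of 10 days and 1 of vehicle, and slide 2 held 1, 2 and 5. Vehicle replicate 2 had the highest value on the first principal component, at 83.6. Next came 10 days replicate 1 at 67.9, and 10 days replicate 5 lay at the other end, at -77.0. The mean r of vehicle replicate 2 to the other arrays was the lowest, at 0.957, but 10 days replicate 5 had 0.958. The title of vehicle replicate 2 carries the same ID number as that of 48 h replicate 5, while its description gives another. The differences from vehicle are given without vehicle replicate 2 after the members. Epithelial markers were present: Epcam, Krt7, Krt8, Krt18 and Krt19 were well above background on all 16 arrays. Some other epithelial genes were so on fewer: Elf3 and Ocln on 8, Cdh3 on 11, Cldn3 on 12 and Dsp on 15. Whether tumour cells or other epithelium gave these signals was not tested.

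Cdh1, Cdh2, Vim, Zeb1 and Zeb2 were well above background on all 16 arrays. Prrx1 was so on 15, Twist2 on 10, Snai1 on 9, Snai2 on 8 and Twist1 on 3. The 9 genes other than Twist1 passed the filter of 5 arrays and were tested among 30331 genes. None of them differed between groups after adjustment in limma, and the groups overlapped for every one of the 10 genes. At 48 h against vehicle 0 genes of the array (0%) passed an adjusted p of 0.05, 778 (2.57%) had an unadjusted p under 0.05, and the groups did not overlap for 0.142% of genes. At 10 days against vehicle the corresponding figures were 0 genes (0%), 1072 (3.53%) and 0.208%. The later time set against 48 h gave 0 genes (0%), 1052 (3.47%) and 0.491%. Of the 9 members, none had such an unadjusted p against vehicle at either time, and 1, Zeb1, had one at 10 days against 48 h.

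**Figure D1:**
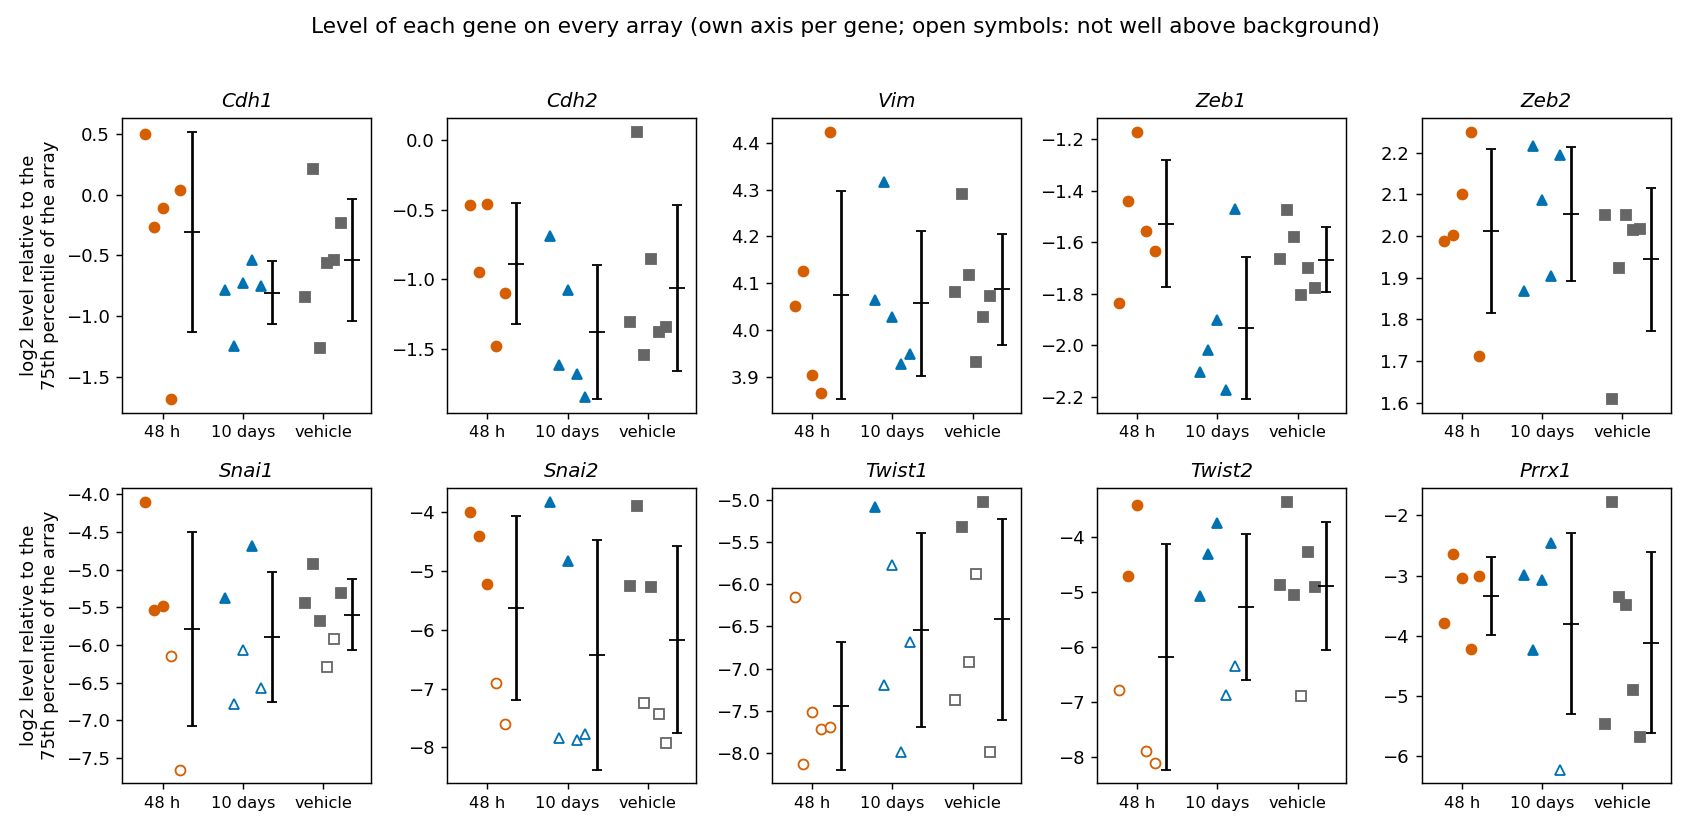
Log2 level, relative to the 75th percentile of the array, of each of the 10 genes on every array, with the mean and SD of each group beside the points and an axis of its own for each gene. The 3 groups overlap in every panel, Cdh1 spans -1.68 to 0.50 over the arrays against 3.87 to 4.42 for Vim, and open symbols (not well above background) fill much of the Snai1, Snai2, Twist1 and Twist2 panels.

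Cdh1, the adhesion molecule of epithelial junctions, was read by 1 probe at chr8:109193812-109193871 (mm9, plus strand). Its log2 levels were 0.50, -0.27, -0.11, -1.68 and 0.04 in 48 h tumours, -0.78, -1.24, -0.73, -0.54 and -0.75 in 10 days tumours, and -1.26 to 0.21 with a median of -0.55 in vehicle tumours. Both the highest and the lowest tumour of the series were taken at 48 h, while the 10 days tumours lay close together (SD 0.26, against 0.82 at 48 h and 0.50 in vehicle, with n = 5, 5 and 6). The log2 fold change was 0.23 ± 0.33 (SE) at 48 h against vehicle and -0.27 ± 0.33 at 10 days against vehicle. For 10 days against 48 h it was -0.50 ± 0.34, with an unadjusted p of 0.162 and an adjusted p of 0.9999 from limma. Within slide 1 that difference was -0.53 and within slide 2 it was -0.68. The 95% interval of the difference against vehicle ran from -0.46 to 0.93 at 48 h and from -0.97 to 0.43 at 10 days. Single arrays moved these values: without 48 h replicate 4 the difference was -0.85 at 10 days against 48 h and 0.58 at 48 h against vehicle (unadjusted p of 0.00484 and 0.0329 in limma, neither past adjustment), and without 48 h replicate 1 the same differences were -0.30 and 0.03.

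Cdh2, the cadherin of neural and mesenchymal cells, followed the same order of groups. Its log2 levels were -0.47, -0.94, -0.46, -1.48 and -1.09 in 48 h tumours, -0.69, -1.61, -1.08, -1.68 and -1.84 in 10 days tumours, and -1.54 to 0.06 with a median of -1.32 in vehicle tumours. Vehicle replicate 2 was the highest of all 16 arrays, and the groups overlapped. Cdh2 had a log2 fold change of 0.17 ± 0.30 (SE) at 48 h and -0.32 ± 0.30 at 10 days against vehicle, and -0.49 ± 0.31 at 10 days against 48 h, where the unadjusted p was 0.134 and the adjusted p 0.9999 in limma. At 10 days against vehicle the value was 0.18 within slide 1 and -0.75 within slide 2. No exchange of the cadherins showed in these group means, since both Cdh1 and Cdh2 had their lowest mean at 10 days. A second Cdh2 probe was not well above background on any array.

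Vim gave nearly the same reading in every tumour. In 48 h tumours the log2 levels were 4.05, 4.13, 3.90, 3.87 and 4.42, in 10 days tumours 4.06, 4.32, 4.03, 3.93 and 3.95, and in vehicle tumours 3.93 to 4.29 with a median of 4.08. The highest tumour was 1.47 times the lowest. The SD of Vim over all arrays was lower than that of all but 9.39% of the 25812 genes well above background on all arrays. Vim had a log2 fold change of -0.01 ± 0.11 (SE) at 48 h and -0.03 ± 0.11 at 10 days against vehicle, with 95% intervals of -0.26 to 0.23 and -0.27 to 0.21. The probe lies at chr2:13504232-13504291 (mm9, plus strand).

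**Figure D2:**
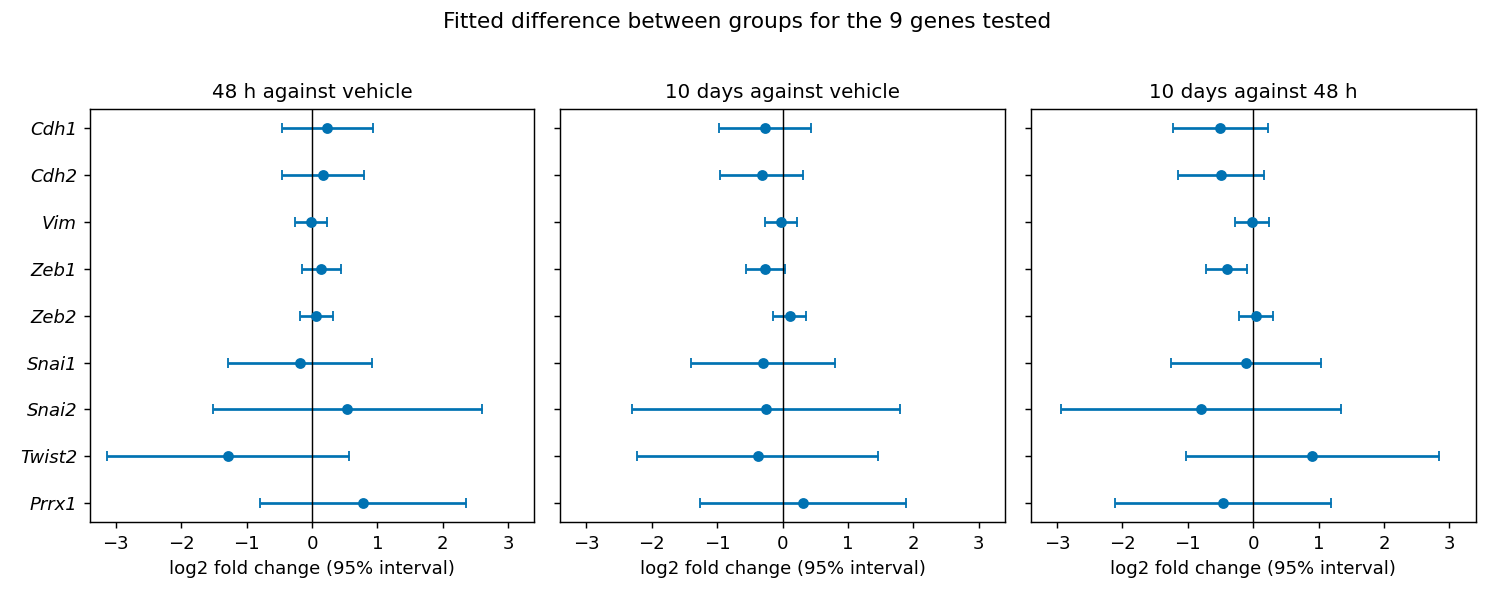
Log2 fold change of each of the 9 genes tested, with its 95% interval from limma, in the 3 comparisons, which are 48 h and 10 days each set against vehicle, then 10 days against 48 h. Intervals of Vim and Zeb2 stay within about 0.4 of 0, those of Snai2 and Twist2 span several log2 units, and the interval of Zeb1 at 10 days against 48 h, -0.72 to -0.09, is the single one of the 27 that leaves out 0.

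Zeb2, a zinc-finger repressor of Cdh1 that macrophages also make, was nearly as steady as Vim by its brightest probe, though not by all of its probes. Its log2 levels were 1.99, 2.003, 2.10, 2.25 and 1.71 in 48 h tumours, 1.87, 2.22, 2.09, 1.90 and 2.19 in 10 days tumours, and 1.61 to 2.05 with a median of 2.02 in vehicle tumours. Vehicle replicate 2, at 1.61, was the lowest of all 16 arrays, and the other 5 vehicle tumours lay between 1.92 and 2.05. Against vehicle the log2 fold change was 0.07 ± 0.12 (SE) at 48 h and 0.11 ± 0.12 at 10 days. The highest array was 1.56 times the lowest, and the SD over arrays stood at the 13.2 percentile of the genes well above background throughout.

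Zeb2 is covered by 7 probes, all well above background on all 16 arrays. Their pairwise Pearson r over the arrays ranged from -0.18 to 0.80 with a median of 0.45, across 21 pairs. Some spread more widely than the brightest: A_55_P2119388 ran from 0.14 to 1.85 and A_52_P587928 from 0.12 to 1.66. Vehicle replicate 2 was the lowest array on A_52_P587928 and on A_55_P2742660. On A_52_P596008 it had 0.70, against 0.63 in 48 h replicate 2. All 7 had a log2 fold change above 0 at 10 days against vehicle, from 0.04 to 0.35, in a fit over 46088 probes, and none passed adjustment. The 7 probes read the same tumours, so they are not separate evidence of a direction. Of all genes tested 52% were below 0 in that contrast. Without vehicle replicate 2 the value of the brightest probe was 0.04. The brightest probe, which gives the values above, is shown because it sets what is read as Zeb2; it lies at chr2:44844068-44844127 (mm9, minus strand):
Zeb2 A_51_P121206: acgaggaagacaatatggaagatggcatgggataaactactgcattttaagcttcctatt

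Zeb1, the paralogue of Zeb2 and likewise a repressor of Cdh1, was the one member with an unadjusted p under 0.05. By its brightest probe the log2 levels were -2.10, -2.02, -1.90, -2.17 and -1.47 in 10 days tumours, and -1.84, -1.44, -1.17, -1.56 and -1.63 in 48 h tumours. Vehicle tumours lay at -1.81 to -1.47 with a median of -1.68. In 4 of the 10 days tumours Zeb1 was below all 48 h and all vehicle tumours, and in the remaining one, 10 days replicate 5, it was among the highest of the series. The log2 fold change at 10 days against 48 h was -0.41 ± 0.15 (SE), with an unadjusted p of 0.0139 in limma, an adjusted p of 0.9999, and rank 286 of 30331 genes by p. In the same contrast 354 genes, or 1.17%, were lower with an unadjusted p under 0.05. Within slide 1 the difference was -0.51 and within slide 2 it was -0.19. Against vehicle the log2 fold change was 0.14 ± 0.14 (SE) at 48 h and -0.27 ± 0.14 at 10 days.

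The other probes of Zeb1 did not repeat this pattern. Of 4 probes, 3 were well above background on all arrays, and the brightest correlated with the other 2 at r = -0.50 and r = -0.40 over the 16 arrays. At 10 days against 48 h those 2 probes had log2 fold changes of 0.32 ± 0.30 and 0.18 ± 0.25 (SE), against -0.41 ± 0.15 for the brightest. With the mean of all probes in its place, the value was 0.03. One of the 2 is annotated to the same transcript as the brightest and the other to a separate transcript model, and the cause of the disagreement was not tested.

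**Figure D3:**
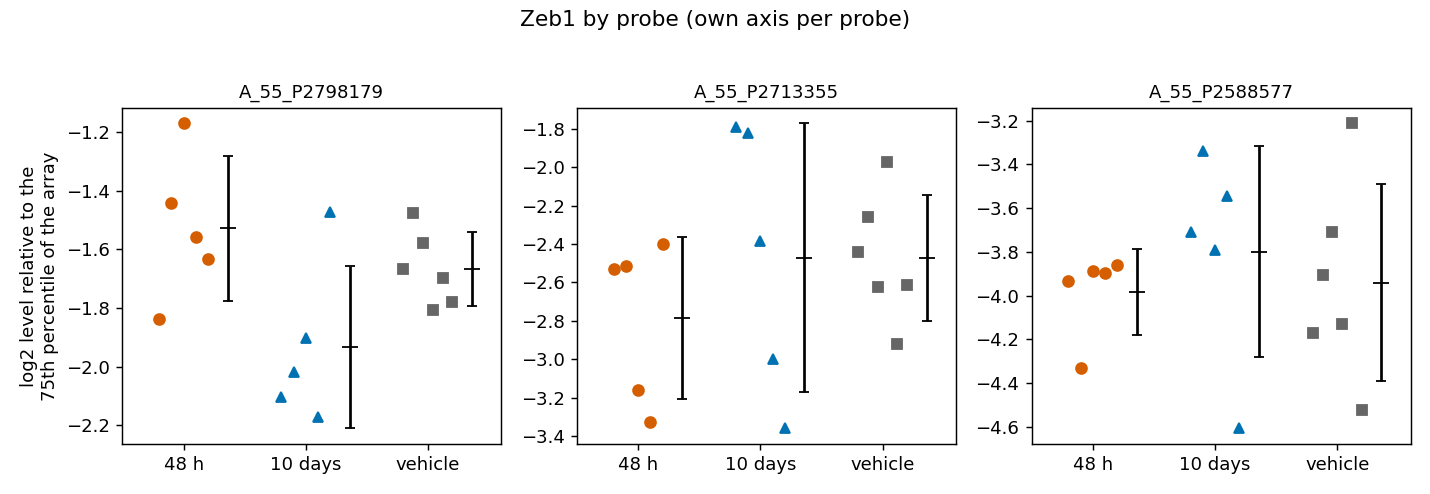
Log2 level of the 3 Zeb1 probes that were well above background on all 16 arrays, by group, with the mean and SD beside the points and an axis of its own for each probe. The 10 days mean lies below the 48 h mean for A_55_P2798179 (-1.93 against -1.53) and above it for A_55_P2713355 (-2.47 against -2.79) and A_55_P2588577 (-3.80 against -3.98).

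Prrx1, a homeobox factor of mesenchymal cells, had the largest SD over the arrays of the 6 members detected on 15 or 16 of them, at 1.26. Its log2 levels were -3.78, -2.63, -3.04, -4.22 and -3.00 in 48 h tumours, -2.99, -4.24, -3.08, -2.46 and -6.22 in 10 days tumours, and -5.69 to -1.77 with a median of -4.19 in vehicle tumours. The value of 10 days replicate 5 was not well above background. Vehicle replicate 2 was again the highest array, and the range of the vehicle tumours alone covered all 48 h tumours. The log2 fold change was 0.78 ± 0.74 (SE) at 48 h and 0.32 ± 0.74 at 10 days against vehicle. Within slide 1, which holds 1 vehicle array, these were 2.05 and 2.04, and within slide 2 the second was -0.50. A second probe, made for another transcript variant and well above background on 8 arrays, had -1.11 ± 0.84 at 48 h against vehicle, so the 2 probes differed in sign. The other probe was well above background on 1 array. The brightest probe, which decides the direction at 48 h, lies at chr1:165187974-165188033 (mm9, minus strand):
Prrx1 A_51_P209778: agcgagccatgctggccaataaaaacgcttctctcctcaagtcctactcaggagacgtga

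Snai1, Snai2, Twist1 and Twist2 lay near the background, where single arrays move by several log2 units. Snai1, the founding Snail repressor of Cdh1, had log2 levels of -4.10, -5.54, -5.49, -6.15 and -7.65 in 48 h tumours, -5.38, -6.78, -6.07, -4.68 and -6.56 in 10 days tumours, and -6.29 to -4.93 with a median of -5.56 in vehicle tumours. It was well above background in 3 of 5, 2 of 5 and 4 of 6 tumours of these groups. Its log2 fold change was -0.19 ± 0.52 (SE) at 48 h and -0.30 ± 0.52 at 10 days against vehicle, and without 48 h replicate 5 the first of these was 0.28.

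Snai2, the Slug repressor, fell into 2 separate clusters of arrays. Its log2 levels were -4.003, -4.41, -5.22, -6.90 and -7.59 in 48 h tumours, -3.82, -7.84, -4.83, -7.87 and -7.78 in 10 days tumours, and -7.92 to -3.89 with a median of -6.26 in vehicle tumours. The 8 arrays where it was well above background lay between -5.27 and -3.82, and the 8 where it was not lay between -7.92 and -6.90, with 3 of 5, 2 of 5 and 3 of 6 tumours of the groups in the higher cluster. The log2 fold change was 0.54 ± 0.96 (SE) at 48 h and -0.26 ± 0.96 at 10 days against vehicle. With slide as a block in the fit the value at 48 h was -0.72.

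Twist2, a basic helix-loop-helix factor of mesenchyme and dermis, had the lowest mean at 48 h. Its log2 levels were -6.77, -4.72, -3.42, -7.88 and -8.11 in 48 h tumours, -5.08, -4.31, -3.75, -6.88 and -6.35 in 10 days tumours, and -6.90 to -3.36 with a median of -4.88 in vehicle tumours. It was well above background in 2 of 5, 3 of 5 and 5 of 6 of them. The log2 fold change at 48 h against vehicle was -1.29 ± 0.87 (SE), with a 95% interval of -3.14 to 0.56 and an unadjusted p of 0.158 in limma. With slide as a block it was -2.32 (unadjusted p = 0.0239, not past adjustment), within slide 2, which holds 1 array of 48 h, it was -3.215, and without the 2 arrays of the same ID number it was -0.50. Twist1, the founding member of that family, was well above background in 0 of 5, 1 of 5 and 2 of 6 tumours, with the 3 arrays between -5.32 and -5.02, and is given no fold change.

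Leaving out vehicle replicate 2 shifted the differences from vehicle, as leaving out other arrays did. It turned the sign of 4 of the 27 differences of members, against 5 without 10 days replicate 4 and 4 without 10 days replicate 5. Without vehicle replicate 2, the log2 fold change at 48 h was 0.38 for Cdh1, 0.39 for Cdh2, 0.03 for Vim, 0.18 for Zeb1 and -1e-05 for Zeb2. For Prrx1 it was 1.246, for Snai1 -0.06, for Snai2 0.998 and for Twist2 -0.98. At 10 days it was -0.12 for Cdh1, -0.10 for Cdh2, 0.01 for Vim, 0.04 for Zeb2, 0.79 for Prrx1, -0.17 for Snai1, 0.20 for Snai2 and -0.08 for Twist2. The sign thus changed for Vim at both times, for Zeb2 at 48 h, where the value was close to 0, and for Snai2 at 10 days, and no member passed adjustment without it either.

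Promoter windows from the RefSeq table (250 bases before the start site, build GRCm38.p6) were held for 6 of the 10 genes, in 9 windows. No window was held for Cdh1, Cdh2, Zeb1 or Snai2, so their promoters were not searched. The E-box letters CACCTG or CAGGTG, the core that Snail and Zeb repressors bind, were searched on the plus strand in both forms, which covers both strands. They stood in 1 of the 9 windows, that of Snai1, and in 17.2% of all 32851 windows of that table. The Snai1 window (chr2:167537945-167538194, GRCm38.p6, plus strand) is shown because it alone held the letters, which are in capitals and begin 126 bases before the start site. The match describes the sequence and not a bound site:
Snai1 promoter: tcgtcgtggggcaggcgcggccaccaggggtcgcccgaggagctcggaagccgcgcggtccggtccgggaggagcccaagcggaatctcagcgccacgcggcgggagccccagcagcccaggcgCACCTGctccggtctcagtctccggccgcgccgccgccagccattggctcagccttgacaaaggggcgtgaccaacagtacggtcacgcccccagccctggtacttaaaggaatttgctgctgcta

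Although the group means did not separate, Cdh1 and Cdh2 varied widely between single tumours, by 4.54 and 3.74 times from the lowest to the highest. Their SD over the arrays stood at the 89.6 and 86.5 percentile of genes well above background throughout. Whether members moved together over single tumours was asked for all 36 pairs of the 9 genes. Cdh1 and Cdh2 correlated positively over the 16 arrays (Pearson r = 0.67, Spearman rho = 0.59), with permutation p of 0.00436 and 0.0188 that were 0.0785 and 0.226 after Benjamini-Hochberg adjustment over the pairs. Within slide 1 the r was 0.86, within slide 2 it was 0.69, without vehicle replicate 2 it was 0.61, and without the 2 arrays farthest from the median of Cdh1 it was 0.64. The pair therefore did not pass the threshold.

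The single pair past an adjusted p of 0.05 over the 16 arrays was Cdh2 with Snai2 (adjusted permutation p of 0.00252 for r and 0.0119 for rho). Within slide 1 its adjusted permutation p was 0.119 and within slide 2 it was 0.1801. Because the arrays form 2 clusters of Snai2, its r is given within each of them, where the range of Snai2 is narrower than over all arrays. Over the 8 arrays where Snai2 was well above background the r with Cdh2 was 0.57 (exact permutation p = 0.139), and over the 8 where it was not the r was 0.18 (exact permutation p = 0.655). With so few arrays and so narrow a range neither value shows whether the relation is present within a cluster. Within slide 1 the pair past the threshold was Zeb2 with Snai2 instead (adjusted permutation p = 0.0411), which had 0.627 over all arrays. Zeb2 ran against 4 other members: with Prrx1, Cdh1, Vim and Cdh2 its r was -0.60, -0.58, -0.56 and -0.53, and none of these passed (adjusted permutation p of 0.139, 0.139, 0.141 and 0.167). Without vehicle replicate 2, where Zeb2 was lowest, the same values were -0.48, -0.49, -0.46 and -0.27.

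**Figure D4:**
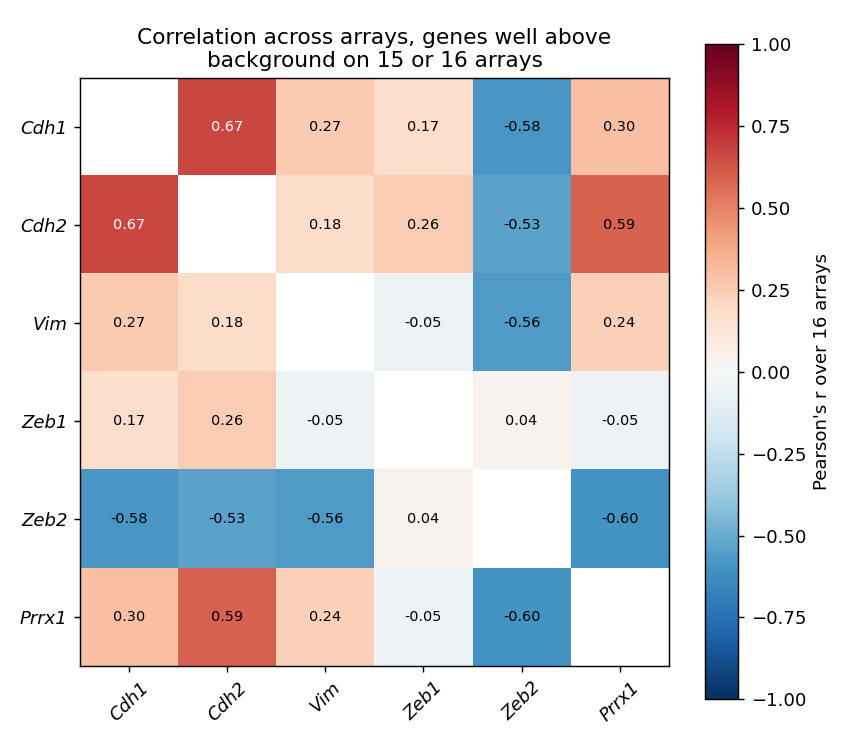
Pearson's r over the 16 arrays between the 6 genes that were well above background on 15 or 16 of them, as a colour and a number. Cdh1 with Cdh2 (0.67) and Cdh2 with Prrx1 (0.59) are the highest, and the Zeb2 row is negative against all but Zeb1 (0.04).

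Cdh2 followed the epithelial genes of the tumours. The mean log2 level of 26 epithelial genes (keratins, claudins, tight-junction and desmosome proteins and the regulators Esrp1, Esrp2, Grhl1, Grhl2, Ovol1 and Ovol2) ran from -3.00 to -0.97 in 48 h tumours, from -2.69 to -1.45 in 10 days tumours and from -2.20 to -0.92 in vehicle tumours. Over the 16 arrays Cdh2 correlated with it at r = 0.90 and rho = 0.91, with an adjusted permutation p of 0.00126 for both, among 126 relations of members with gene lists that were added after the data were seen. The unadjusted p, 1e-05, is the smallest that 100000 permutations can give. Within slide 1 the r was 0.90 and within slide 2 it was 0.98. It was 0.88 without vehicle replicate 2, 0.93 without the 2 arrays farthest from the median of the epithelial mean, and 0.91 with group and slide means removed. Of the 26 genes, 24 had an r above 0 with Cdh2, with a median of 0.57, against 57.8% of the genes tested and a median of 0.07. The highest, named after their values were seen, were Elf3, an epithelial transcription factor detected on 8 arrays, at 0.91, the keratin Krt18 at 0.89, Tjp1, the junction scaffold ZO-1, at 0.88, Crb3, a polarity protein, at 0.87 and the keratin Krt19 at 0.87. Epcam, the epithelial adhesion molecule, had 0.68. The lowest 3 were Marveld2, Rab25 and Ovol1, with r of 0.02, -0.06 and -0.07.

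Cdh1 followed the same epithelial mean less tightly by rank (r = 0.79, adjusted permutation p = 0.00504; rho = 0.65, adjusted permutation p = 0.105). Its r was 0.92 within slide 1, 0.63 within slide 2, 0.76 without vehicle replicate 2 and 0.66 without the 2 arrays farthest from the median of the epithelial mean. In 48 h replicate 4, the tumour lowest in Cdh1 at -1.68, the epithelial mean was also the lowest of the series at -3.00. Epcam had the highest r with Cdh1 of the 26 genes, at 0.87. Of the 26, 23 had an r above 0, against 51.3% of all genes tested, with medians of 0.48 and 0.01.

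**Figure D5:**
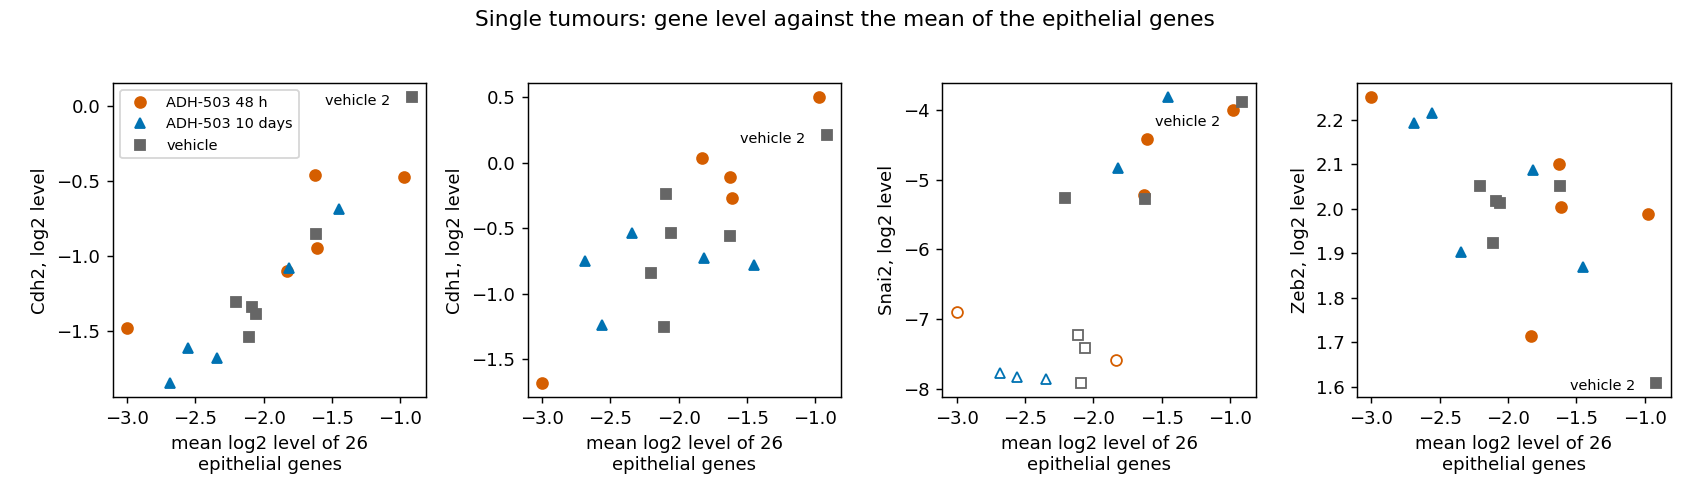
Log2 level of Cdh2, Cdh1, Snai2 and Zeb2 in each tumour against the mean log2 level of the 26 epithelial genes in the same tumour, by group; open symbols are not well above background. Cdh2 is higher in tumours with a higher epithelial mean (r = 0.90 over the 16 arrays), Snai2 splits into a detected and an undetected cluster, and vehicle replicate 2 is the lowest point of Zeb2.

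The relation of Snai2 with the epithelial mean passed over the 16 arrays (adjusted permutation p of 0.0084 for r and 0.0284 for rho), as did that with the mean of the other transition factors (adjusted permutation p of 0.00315 for both). Within the clusters of Snai2 the r with the epithelial mean was 0.77 over the 8 arrays with detected Snai2 (exact permutation p = 0.0239, adjusted over 8 such relations 0.192) and -0.30 over the other 8 (exact permutation p = 0.464). With the other transition factors it was 0.50 and 0.66 (exact permutation p of 0.2103 and 0.0751). Taken singly, 10 of the 17 other factors had an r above 0 with Snai2 over the 16 arrays (median 0.01). Among all genes tested 55.02% did (median 0.04), so the relation of Snai2 with the mean of these factors was not shared across the single factors. Zeb2 ran against the epithelial mean (r = -0.65, rho = -0.59), which did not pass (adjusted permutation p of 0.0592 and 0.197), and without the 2 farthest arrays, 48 h replicate 4 and vehicle replicate 2, the r was -0.38. With group and slide means removed the r was -0.74 (adjusted permutation p = 0.0123). That p is too small, because the permutation treated the values left after removing the means as free, so it is not read as passing. Of the 26 epithelial genes 1 had an r above 0 with Zeb2, against 39.6% of all genes tested. The medians were -0.45 and -0.07, so most genes of the array also ran against Zeb2, though less strongly. With the mean of 11 macrophage genes Zeb2 had an r of 0.33 and a rho of 0.56 (adjusted permutation p of 0.478 and 0.205). That r was 0.61 without the 2 arrays farthest from the median of the macrophage mean (vehicle replicate 4 and 48 h replicate 3), 0.71 within slide 1 and -0.08 within slide 2. The sources of these values, whether tumour cells, stroma or both, were not tested.

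Markers of other cells moved with these genes in places. Cdh2 and Zeb2 correlated with the mean of 6 Schwann cell and nerve genes at r = 0.75 and -0.74 (adjusted permutation p of 0.014 and 0.0197; for rho 0.07875 and 0.186), and both fell short without vehicle replicate 2 (r of 0.60 and -0.565, adjusted permutation p of 0.2445 and 0.263). Prrx1 had an r of 0.68 with that mean (adjusted permutation p = 0.0458; for rho 0.108), and 0.59 without the same array (adjusted permutation p = 0.2445). Cdh2 also correlated with the mean of the other transition factors (r = 0.84) and that of the inducing signals (r = 0.83). Each had an adjusted permutation p of 0.00315. By rank the first passed (rho = 0.83, adjusted permutation p = 0.00588) and the second did not (rho = 0.68, adjusted permutation p = 0.07875). Without vehicle replicate 2 both r were 0.76. Gene by gene, 10 of the 17 other factors had an r above 0 with Cdh2 (median 0.09). Over all genes tested it was 57.8% (median 0.07), so the relation with the mean was not shared across the single factors. For the inducing signals 13 of 16 were above 0 (median 0.33). Acinar genes of the normal pancreas were higher at 48 h against vehicle for 13 of 15, with a median log2 fold change of 0.89 against -0.01 over all genes. An unadjusted p under 0.05 was found for 8 of the 15, against 2.57% of all genes, and none passed adjustment. Their mean log2 level ran from 1.24 to 1.76 in 48 h tumours, from -0.42 to 1.70 in 10 days tumours and from -0.12 to 1.37 in vehicle tumours. The r of the acinar mean was 0.31 with Cdh1 and 0.52 with Cdh2, with adjusted permutation p of 0.478 and 0.179. Of the 15 acinar genes 14 had an r above 0 with Cdh2 (median 0.49) and 13 with Cdh1 (median 0.27). Over all genes tested 57.8% and 51.3% were above 0, with medians of 0.07 and 0.01. Of 9 endothelial genes 8 had an r above 0 with Cdh2 (median 0.39). The part of acinar tissue in the cadherin levels was not tested further.

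Genes whose pattern over the arrays was most like a member were taken from 25763 genes well above background on all 16 arrays, as a description. For Cdh1 they were Slc16a1, a lactate transporter, at r = 0.93, Epcam at 0.87, Tuba4a, an alpha-tubulin, at 0.86, Spint2, an inhibitor of epithelial serine proteases, at 0.86 and Scd2, a fatty acid desaturase, at 0.85. For Zeb2 they were Polg, the mitochondrial DNA polymerase, at 0.88, Ddx60 at 0.80, Dnaaf3 at 0.79, Mef2c, a transcription factor of muscle and myeloid cells, at 0.78, and Ang2 at 0.77. Without vehicle replicate 2, where Zeb2 was lowest, these values were 0.94, 0.66, 0.66, 0.61 and 0.61 in the same order. For Vim the highest were Olfr629, an odorant receptor gene, at 0.87, Gm39910 at 0.84, Spata4 at 0.83, AK144717 at 0.81 and Hmx2 at 0.81. For Prrx1 they were AK177132 at 0.87 and Ppp1r13l, Gm10706, ENSMUST00000121349 and LOC102640328 at 0.84 each. Over 16 arrays the highest r among so many genes can be large by chance alone, and no p was computed for any of these genes.

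The rest of the pathway did not pass the test either. The 26 epithelial genes were 14 higher and 12 lower at 48 h against vehicle (median log2 fold change 0.01), and 5 higher and 21 lower at 10 days against vehicle (median -0.26). Over all genes tested, 53.2% were below 0 at 48 h and 52% at 10 days, with medians of -0.01 and -0.01. Of the 26, 8 were higher and 18 lower at 10 days against 48 h (median -0.23), and 48.9% of all genes were below 0 there. The genes of smallest p were Grhl1, an activator of epithelial genes (-0.81 ± 0.32, SE), and Esrp1, an epithelial splicing regulator (-0.33 ± 0.22), at 48 h. At 10 days they were the claudin Cldn3 (-2.39 ± 0.90) and Ovol1, a repressor that holds cells epithelial (0.71 ± 0.29), the first of these well above background in 2 of 5 tumours at 10 days. Mesenchymal effector genes, 18 in all, were lower for 11 at 48 h and 13 at 10 days, with a median of -0.06 at both. Among them Tnc, a matrix glycoprotein, had -0.30 ± 0.20 at 48 h and -0.43 ± 0.20 at 10 days, Col1a1, a chain of fibrillar collagen, -0.70 ± 0.58 at 48 h and Mmp3, a matrix protease, -0.69 ± 0.42 at 10 days.

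Of 18 other transition factors, 17 were tested, with 6 higher and 11 lower at 48 h (median -0.05) and 7 higher and 10 lower at 10 days (median -0.05). Foxc2, a forkhead factor, had -0.86 ± 0.49 (SE) at 48 h. The E-protein Tcf3 had 0.18 ± 0.13 at 48 h and 0.27 ± 0.13 at 10 days, and its relative Tcf4 had 0.14 ± 0.10 at 10 days. Of the 16 genes for inducing signals 8 were higher at 48 h (median 0.00) and 6 at 10 days (median -0.08). The ligand Tgfb2 had 1.16 ± 0.43 (SE) at 48 h and 0.69 ± 0.43 at 10 days, with an unadjusted p of 0.0171 and 0.128. Met, the receptor of hepatocyte growth factor, had -0.42 ± 0.22 at 48 h and -0.48 ± 0.22 at 10 days, with an unadjusted p of 0.0719 and 0.0426. None of these genes passed adjustment in limma.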

How the data were processed

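The submitters' processing notes name Agilent Feature Extraction 11.5.1.1. Processed signals are linear intensities with the background already subtracted, per the file headers, which place probes on mouse build mm9. The authors also deposited a quantile-normalized log2 table of the same arrays, used as an alternative source. Here log2 processed signal minus the 75th percentile of each array over 56605 probes was used, control spots and outlier flags left out, with the brightest probe of each gene name. Genes well above background on at least 5 of 16 arrays entered 1 limma fit (version 3.58.1, R 4.3.3, 3 groups, robust eBayes), 2-sided, with Benjamini-Hochberg adjustment over 30331 genes and a threshold of 0.05. Fits were tested on simulated data. Correlations used 100000 permutations (all 40320 over 8 arrays), 2-sided.

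Groups follow the treatment and time labels, and replicate numbers follow accession order. The alternatives were the deposited table, other background corrections, normalizations, filters, probe rules and fits, each slide, and each array left out. The members and gene lists were chosen with earlier results of these data known. Named genes are the members and the 2 genes of smallest p per contrast against vehicle in each of 4 pathway lists. The 5 genes most correlated with Cdh1, Vim, Zeb2 and Prrx1 are named too. Epithelial genes named by their r with Cdh2 or Cdh1 were chosen after their values were seen, and others are named for their detection. The number of arrays limits the precision. Promoters are from RefSeq. Protein sequences were not used here.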

Additional observations from a re-analysis of the deposited data

Results flagged for a closer look

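In groups of 5 or 6 arrays, 4 of 72 groups of values held an array far from the others by Dixon's test at the 95% level, and chance flags about 1 group in 20. Vehicle replicate 2 had a Zeb2 log2 level of 1.61, against 1.92 to 2.05 in the other vehicle tumours. Replicate 5 at 10 days had a mean of -3.30 over the fibroblast genes, against -1.99 to -1.50 in the other 10 days tumours, and it was also the array where Prrx1 was not well above background. Vehicle replicate 4 had a mean of 3.75 over the macrophage genes, against 3.93 to 4.02 in the other vehicle tumours. In the same array the mean of 12 housekeeping genes was 3.13, against 3.31 to 3.39.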

How the results depend on the processing

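Across 27 differences of members, 722 of 771 values in the alternatives kept their direction, 49 did not, and 0 passed the threshold (smallest adjusted p 0.596); apart from Zeb1 at 10 days against 48 h, the differences that turned had a 95% interval across 0 with all arrays, and the causes were not tested. With slide as a block 24 of 27 kept their direction, and at 48 h against vehicle Vim was then 0.014, Zeb2 -0.026 and Snai2 -0.72. Slide 1 alone gave, at 48 h against vehicle, Snai1 0.12, at 10 days against vehicle Cdh2 0.18, Vim 0.055 and Twist2 0.49, and at 10 days against 48 h Vim 0.15 and Zeb2 -0.029. Slide 2 alone gave, at 48 h against vehicle, Cdh2 -0.084, Vim 0.34, Zeb2 -0.21 and Snai2 -1.245, at 10 days against vehicle Snai1 0.0025 and Prrx1 -0.50, and at 10 days against 48 h Snai1 2.03. With the mean of all probes, Zeb1 was -0.072 and Prrx1 -0.17 at 48 h against vehicle, and at 10 days against 48 h Zeb1 was 0.031 and Prrx1 0.39. Without the 2 arrays of the same ID number, Snai1 was 0.41 at 48 h against vehicle, Vim 0.010 and Snai2 0.20 at 10 days against vehicle, and Vim 0.070 and Zeb2 -0.032 at 10 days against 48 h. Vim was also 0.010 at 48 h against vehicle with normexp background, and at 10 days against 48 h 0.033 in the authors' table and 0.036 after quantile normalization.

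Leaving out 1 array at a time turned 11 of the 27 differences at least once. The ranges were, at 48 h against vehicle, -0.10 to 0.039 for Vim, -1e-05 to 0.14 for Zeb2 and -0.61 to 0.28 for Snai1. At 10 days against vehicle they were -0.095 to 0.010 for Vim, -0.91 to 0.20 for Snai2, -0.78 to 0.019 for Twist2 and -0.017 to 0.92 for Prrx1. At 10 days against 48 h they were -0.082 to 0.070 for Vim, -0.032 to 0.10 for Zeb2, -0.58 to 0.31 for Snai1 and -0.79 to 0.15 for Prrx1. Cdh1, Cdh2 and Zeb1 kept their directions in all of these.

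The number of genes past the threshold, 0 in each comparison, was 1 at 48 h and 1 at 10 days against vehicle with no filter on background, 3 at 10 days against 48 h with the 2 groups fitted alone, and 0 to 1 in each with 1 array left out (1 without vehicle replicate 1 or 5 at 48 h against vehicle and at 10 days against 48 h, and without 10 days replicate 4 at 10 days against vehicle); no member was among them. Past the threshold was 1 pair of members with all arrays, 2 pairs with the mean of all probes, 1 within slide 1 (another pair, Zeb2 with Snai2), 0 within slide 2, 8 with group and slide means removed, and 1 to 3 with 1 array left out (2 without 10 days replicate 2 and 3 without 10 days replicate 4). Of the 126 relations of members with lists 9 passed, and 6 to 13 with 1 array left out. The count was 0 within slide 1, 2 within slide 2 and 26 with group and slide means removed. With those means removed, the counts of 8 pairs and 26 relations are likely too high. The permutation there treated the values left after removing the means as free, which makes p too small. The r of Cdh2 with the epithelial mean stayed between 0.88 and 0.98 in all of its alternatives. No paired analysis was possible because replicate numbers follow accession order and carry no pairing. Signal over background limits Snai1, Snai2, Twist1 and Twist2, which were below the call on 6 or more arrays each.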

Other observations

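Marker genes of the blood and of other tissue elements, fixed with the other lists, gave the following counts. Erythroid genes were lower in 8 of 8 at 48 h and 8 of 8 at 10 days against vehicle, with median log2 fold changes of -1.24 and -1.50; over all genes tested 53.2% and 52% were below 0. Of the 8, 4 and 5 had an unadjusted p under 0.05 in limma, against 2.57% and 3.53% of all genes, and none passed adjustment. The 4 at 48 h were all globin genes, which need not be separate signals. Among these globins 1 was well above background in only 1 of 5 tumours at 48 h. The mean of the 8 erythroid genes ran from -4.36 to -2.11 in 48 h tumours and from -4.25 to -2.90 in 10 days tumours. In vehicle tumours this mean ran from -3.33 to -0.07. Its r with Cdh1, Cdh2 and Zeb2 was -0.01, -0.06 and -0.18. At 10 days against 48 h, 14 of 15 acinar genes were lower, against 48.9% of all genes, with a median of -1.10. Of these, 11 were lower with an unadjusted p under 0.05, against 1.17% of all genes. Macrophage genes were higher in 11 of 11 at 48 h and 10 of 11 at 10 days against vehicle, with medians of 0.12 and 0.07. Endothelial genes were lower in 8 of 9 at both times (medians -0.66 and -0.27), fibroblast genes in 7 of 11 at both (-0.12 and -0.13), pericyte and smooth muscle genes in 5 of 7 at both (-0.06 and -0.19), and islet genes in 6 of 6 at both (-0.18 and -0.19). Schwann cell and nerve genes were lower in 4 of 6 at 48 h and 3 of 6 at 10 days (-0.22 and 0.00), and mesothelial genes in 1 of 4 at both (0.15 and 0.06). Housekeeping genes were lower in 1 of 12 at 48 h and 7 of 12 at 10 days (0.05 and -0.01). No gene of these lists passed adjustment in limma.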
